A study of Homo sapiens with 6 samples.

Results

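Nuclear-encoded subunits of the respiratory chain were followed on 6 Affymetrix gene-level arrays of a human breast cancer cell line. The members were the probe sets outside the mitochondrial chromosome and outside the array's controls whose deposited gene symbol begins with NDUFA, NDUFB, NDUFC, NDUFS, NDUFV, SDH, UQCR, COX4 to COX8 or ATP5, or equals CYC1 or CYCS. This rule took 102 of the 33297 probe sets in the table. One of them, at the NDUFB4 gene, held no values, so 101 probe sets of 93 genes were measured, among 28026 tested probe sets.

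The cells were MDA-468.shp53, named for a short hairpin RNA against p53 that doxycycline is used to switch on. They were grown for 8 days in 3D culture. The submitters' label for the data, breast cell line p53mut shRNA, marks the p53 of this line, shared by both groups, as mutant. The +DOX group (3 arrays) was grown with doxycycline and the -DOX group (3 arrays) without it, and each of 3 independent experiments gave 1 array of each group. Both groups carry the hairpin construct. A line without the hairpin given doxycycline was not analysed here, so effects of the hairpin and of the drug cannot be told apart. Whether the line is 1 clone is not given in the sources used here. In bulk RNA such as this, fewer cells of a type and less RNA per cell cannot be told apart. All values below are log2 signals from the Robust Multichip Average (RMA), and a change is the mean +DOX minus -DOX difference within an experiment. A probe set was called when its limma p-value, adjusted by Benjamini and Hochberg over all tested probe sets, was below 0.05.

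The respiratory chain sits in the inner mitochondrial membrane. Complex I takes electrons from NADH and complex II from succinate, and both hand them to ubiquinone. Complex III passes them to cytochrome c, and complex IV passes them on to oxygen. Complexes I, III and IV pump protons, and complex V, the ATP synthase, uses the returning protons to make ATP. The catalytic core of complexes I, III and IV is encoded partly on mitochondrial DNA, whereas most subunits, the accessory ones in particular, are encoded in the nucleus. The transcription factors NRF1, GABP (an ETS factor) and YY1 are known regulators of these nuclear genes.

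The line's epithelial markers EPCAM, CDH1, KRT8, KRT18 and KRT19 lay between the 95.4th and the 99.7th percentile of signal. Their summed level (log2) was 14.44 to 14.63 in +DOX and 14.76 to 14.92 in -DOX cells, and KRT8 was called lower (change -0.63, limma adjusted p = 0.005). Of 5 fibroblast, 5 leukocyte and 4 endothelial markers, 1, 2 and 2 lay below the 25th percentile of signal, the leukocyte gene PTPRC among them. The summed fibroblast markers lay at 9.80 to 9.93 in +DOX and 9.77 to 10.03 in -DOX cells, and the leukocyte markers at 9.04 to 9.40 in +DOX and 9.08 to 9.29 in -DOX cells. The endothelial markers lay at 8.09 to 8.19 in +DOX and 8.11 to 8.25 in -DOX cells, so these 3 lists overlapped between the groups. The part of these markers in the results below was not tested. Array medians lay between 7.45 and 7.56.

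The upstream sequences of 4 genes are shown because these genes were among the called members of complexes I and IV: COX6B1, NDUFA2 and COX8A fell in +DOX cells and NDUFS4 rose. Each window runs from 250 bases before to 50 bases after the gene's start in RefSeq on GRCh38.p14, written 5′ to 3′ on the gene's strand. Capitals mark a match, on either strand, to CCGGAAG (the core of the ETS motif that GABP binds) or AAGATGG (the YY1 motif). The NRF1 motif, GCGCA and GCGC with any 1 base between them, was searched in the same way and has no match in these 4 windows; it overlaps neither of the other motifs in letters. COX6B1 lies at chr19:35648073-35648372 (plus strand) and NDUFA2 at chr5:140647581-140647880 (minus strand). COX8A lies at chr11:63974370-63974669 and NDUFS4 at chr5:53560389-53560688, both on the plus strand.
COX6B1: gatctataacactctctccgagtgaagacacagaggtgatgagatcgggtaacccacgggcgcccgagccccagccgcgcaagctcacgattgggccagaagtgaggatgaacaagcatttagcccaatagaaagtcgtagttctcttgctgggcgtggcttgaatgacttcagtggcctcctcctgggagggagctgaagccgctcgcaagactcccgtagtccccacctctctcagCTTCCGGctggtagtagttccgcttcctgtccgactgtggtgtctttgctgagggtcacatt
NDUFA2: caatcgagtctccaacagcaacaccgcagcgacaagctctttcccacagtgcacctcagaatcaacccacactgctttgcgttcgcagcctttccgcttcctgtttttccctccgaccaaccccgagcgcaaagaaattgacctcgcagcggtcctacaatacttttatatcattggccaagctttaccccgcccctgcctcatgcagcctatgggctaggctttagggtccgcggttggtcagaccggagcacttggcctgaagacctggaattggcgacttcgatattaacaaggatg
COX8A: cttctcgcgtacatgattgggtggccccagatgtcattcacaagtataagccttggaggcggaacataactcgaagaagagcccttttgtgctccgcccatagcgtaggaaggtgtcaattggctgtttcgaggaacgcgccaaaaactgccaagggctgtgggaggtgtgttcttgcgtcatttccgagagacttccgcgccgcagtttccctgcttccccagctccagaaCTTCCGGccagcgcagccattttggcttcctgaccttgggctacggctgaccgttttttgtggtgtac
NDUFS4: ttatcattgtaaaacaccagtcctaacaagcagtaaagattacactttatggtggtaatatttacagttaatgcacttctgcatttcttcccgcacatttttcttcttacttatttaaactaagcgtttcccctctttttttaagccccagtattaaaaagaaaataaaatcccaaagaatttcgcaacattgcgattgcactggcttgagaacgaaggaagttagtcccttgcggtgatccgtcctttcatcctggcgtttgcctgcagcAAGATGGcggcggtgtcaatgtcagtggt

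COX6B1 and COX8A each hold 1 ETS match, NDUFS4 holds 1 YY1 match just after its start, and NDUFA2 holds none of the 3 motifs. Of the 83 subunit genes measured at their own position, 68 were matched by symbol to 81 promoter windows. The NRF1 motif was in 18.5% of these windows, against 5.78% of all 35116 windows of the same length. The ETS motif was in 25.9% of member windows against 10.3% of all, and the YY1 motif in 23.5% against 5.84%. Among the 9 windows of genes called lower, 1 held the NRF1, 3 the ETS and 1 the YY1 motif. Among the 3 windows of genes called higher, 0, 1 and 1 did, and among the 69 windows of genes not called, 14, 17 and 17 did. The motif shares describe only the 68 matched genes. These include 9 of the 12 subunits called lower at their own position and 3 of the 4 called higher. No difference between called and uncalled genes was tested.

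In +DOX cells, 14 members were called lower and 6 higher, so 20 of 101 changed (19.8%). Over all tested probe sets, 12.8% were called, 6.63% lower and 6.14% higher. Among the members the shares were 13.9% lower and 5.94% higher. The members called lower were 12 subunits of complexes I, IV and V classed here as accessory, led by COX6B1, NDUFA2 and COX8A, and 2 gene copies, ATP5EP2 and SDHALP2. Accessory here means outside the catalytic or electron-carrying core, so ATP5G1 and ATP5E of complex V are among the 12. Those called higher were UQCRH and CYC1 of complex III, cytochrome c itself (CYCS), the complex I subunit NDUFS4, and 2 NDUFAF2 probe sets. NDUFAF2 is a complex I assembly factor, and 1 of the 2 probe sets lies on chromosome 2, away from the gene on chromosome 5. All 20 had the same sign in the 3 experiments, and in 17 of 20 the groups did not overlap. The calls rest on these same arrays, so neither count is separate support for them. Without the experiment term in the fit, 9 members were called lower and 2 higher, and 8.6% of all tested probe sets were called. The calls of UQCRH, NDUFS4, NDUFB11, CYC1, SDHALP2, CYCS, ATP5E, NDUFA1 and ATP5G1 were then lost (adjusted p = 0.225, 0.151, 0.133, 0.13, 0.111, 0.0754, 0.0682, 0.0588 and 0.0549). The study's own paired test per probe set, at its unadjusted 1% level, gave 5 lower and 2 higher members and 4.16% of all tested probe sets. None reached a 2-fold difference in the paired limma fit, which 342 of all called probe sets did. Over all members, +DOX and -DOX arrays did not overlap for 23 lower and 8 higher probe sets, beside 13.5% lower and 11.4% higher among all tested probe sets. The members are bright: 90 of 101 lay above the median signal of all tested probe sets, and their median level was 10.01 against 7.50.

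**Figure D1:**
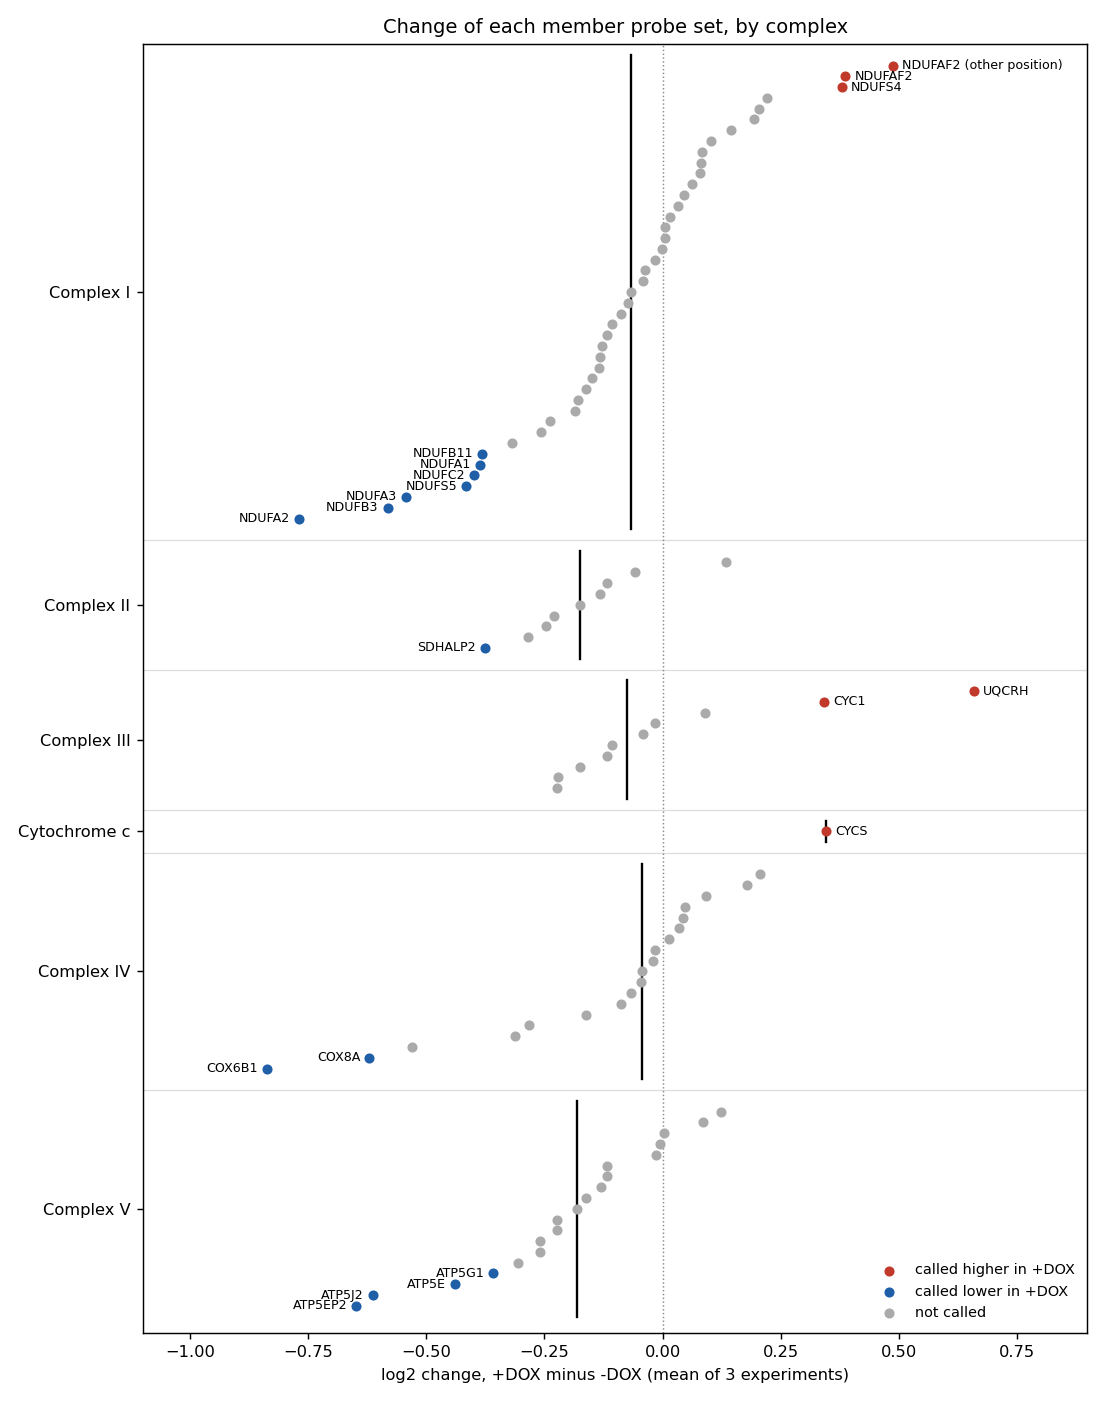
Log2 change (+DOX minus -DOX, mean of 3 experiments) of each of the 101 measured member probe sets, 1 point each, ordered within its complex. Red points were called higher in +DOX, blue points called lower and grey points not called; the black line is the median of the complex. The called-lower points of complexes I, IV and V reach -0.77, -0.84 and -0.65, while the highest point is UQCRH at 0.66.

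The median change over the members was -0.11, against -0.01 over all tested probe sets. Of the members, 69 were below 0 and 32 above, beside 15041 below and 12985 above among all tested probe sets. The members' shift rested largely on experiment 2. Their medians in experiments 1, 2 and 3 were -0.06, -0.19 and -0.05, against 0.01, 0.02 and -0.06 over all. Without experiment 2 the members' median change was -0.04, against -0.03 over all tested probe sets. The -DOX array of experiment 2 carried the highest of the 6 values for 44 members (43.6%), whereas it did so for 15.5% of all tested probe sets. The change was lowest in experiment 2 for 57 of the 101 members, beside 7828 of the 28026 tested probe sets. Relative to the mean of the -DOX arrays, the members sat a median 0.07 higher on that array, and all tested probe sets sat -0.01. Fewer calls were made without experiment 2, 6 lower (5.94% of members, beside 3.77% of all) and 2 higher (1.98% beside 3.04%). Without experiment 1 the counts were 8 lower (7.92% beside 5.13%) and 1 higher (0.99% beside 5.05%), and without experiment 3 they were 7 lower (6.93% beside 3.21%) and 0 higher (0.0% beside 1.63%).

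**Figure D2:**
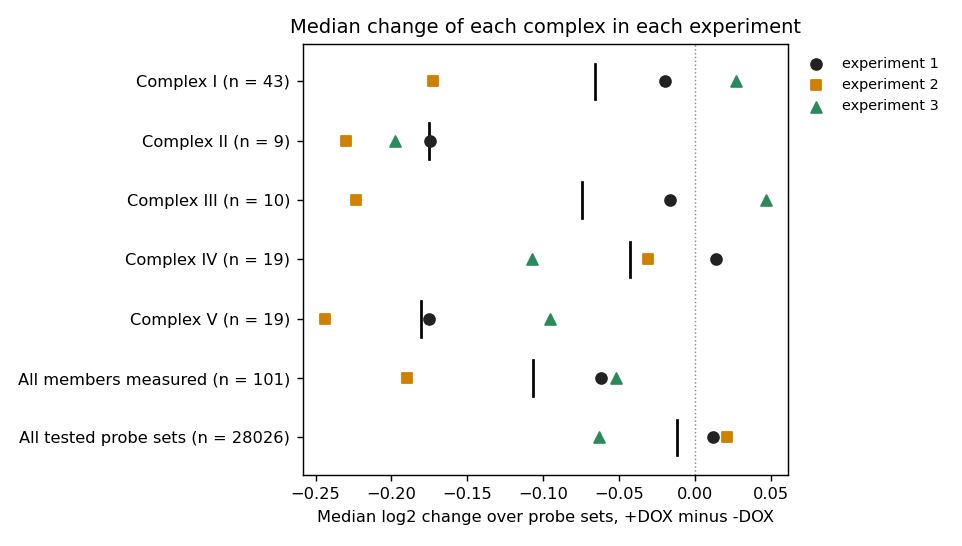
Median log2 change (+DOX minus -DOX) over the member probe sets of each complex, over all members and over all tested probe sets, in each of the 3 experiments (symbols), with the black line at the median of the mean changes. Experiment 2 (squares) gave the lowest median for complexes I, II, III and V and for all members (-0.19), but not for all tested probe sets (0.02).

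Of 43 measured complex I members, 7 were called lower (16.3%, beside 6.63% of all tested probe sets) and 3 higher (6.98%, beside 6.14%). Complex I had a median change of -0.07. Its peripheral arm consists of the N module, which oxidises NADH, and the Q module, which reduces ubiquinone, and its membrane arm, the P module, pumps protons. Of 21 P-module subunits at their own position, 6 were called lower and the median change was -0.16. Of 10 N-module subunits, NDUFA2 was called lower and NDUFS4 higher (median -0.02). Of 6 Q-module subunits 0 were called by limma, with 1 at an unadjusted p below 0.05, and their median was 0.05. Over all tested probe sets, 24.5% were at an unadjusted p below 0.05. The difference between modules was not tested.

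NDUFA2, a small accessory subunit at the tip of the N module (chr5:140005136-140007424 on NCBI build 36), had the largest fall of complex I. It read 9.15, 9.47 and 9.51 in +DOX cells of experiments 1 to 3, against 10.00, 10.19 and 10.24 in -DOX cells. The lowest -DOX array was above the highest +DOX array. The change was -0.77 ± 0.08 (SE, limma adjusted p = 0.0019), a 1.71-fold lower signal. In the same module, NDUFS4, an accessory subunit whose loss destabilises the N module and causes Leigh syndrome, went the other way. It read 8.69, 8.95 and 9.17 in +DOX cells, against 8.38, 8.66 and 8.62 in -DOX cells, without overlap. The change was 0.38 ± 0.09 (adjusted p = 0.0342), and the call was lost with any 1 experiment left out (adjusted p 0.0801 to 0.15).

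The P-module subunits called lower were NDUFB3, NDUFA3, NDUFS5, NDUFC2, NDUFA1 and NDUFB11, all accessory proteins of the membrane arm. NDUFB3 read 6.77, 6.79 and 6.94 in +DOX cells, against 7.23, 7.59 and 7.44 in -DOX cells, the dimmest of the 6 (change -0.58 ± 0.10, adjusted p = 0.0096). NDUFA3 read 9.98, 10.14 and 10.23 in +DOX cells, against 10.60, 10.68 and 10.71 in -DOX cells (-0.54 ± 0.08, adjusted p = 0.0067). Neither gene's groups overlapped. NDUFS5 read 12.23, 12.45 and 12.47 in +DOX cells, against 12.75, 12.89 and 12.76 in -DOX cells (-0.42 ± 0.09, adjusted p = 0.0216). NDUFC2 read 11.76, 11.96 and 11.87 in +DOX cells, against 12.20, 12.38 and 12.20 in -DOX cells (-0.40 ± 0.08, adjusted p = 0.02). Both are among the brightest complex I members, and again every -DOX array was above every +DOX array.

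NDUFA1 read 9.56, 9.53 and 9.45 in +DOX cells, against 9.79, 10.10 and 9.81 in -DOX cells (-0.39 ± 0.10, adjusted p = 0.0387). NDUFB11 read 10.71, 10.90 and 11.05 in +DOX cells, against 11.03, 11.35 and 11.43 in -DOX cells (-0.38 ± 0.08, adjusted p = 0.0235). NDUFB11 was the one whose groups overlapped, its first -DOX array lying just below the third +DOX array. These calls differed in how firmly they held. NDUFA3 stayed below the threshold with each experiment left out, and NDUFB3 lost the call only without experiment 2 (adjusted p = 0.0508). NDUFS5, NDUFC2, NDUFA1 and NDUFB11 lost it with any 1 experiment left out, with adjusted p up to 0.101, 0.103, 0.227 and 0.137. The remaining 15 P-module subunits were not called, and their changes ran up to 0.10 (NDUFA10).

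The 7 nuclear core subunits of complex I carry its flavin and iron-sulphur centres, and limma called 0 of them, with 2 at an unadjusted p below 0.05, beside the 24.5% of all tested probe sets. NDUFV1, which binds NADH, read 11.50, 11.42 and 11.42 in +DOX cells, against 11.13, 11.30 and 11.24 in -DOX cells (0.22 ± 0.09, adjusted p = 0.176). Its groups did not overlap, with every +DOX array above every -DOX array. The changes of NDUFS7, NDUFS8, NDUFS1 and NDUFS3, which bind iron-sulphur clusters or sit beside them, were 0.08, 0.06, -0.04 and -0.15. NDUFV2, the iron-sulphur partner of NDUFV1, read 9.75, 9.70 and 10.01 in +DOX cells, against 9.76, 10.42 and 9.63 in -DOX cells. Its one high value was the -DOX array of experiment 2, and the change was -0.12 ± 0.18 (adjusted p = 0.821).

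The symbols beginning with NDUFA also took in 2 assembly factors, NDUFAF1 and NDUFAF2, which help to build complex I without staying in it. NDUFAF2, a late-stage chaperone, read 8.99, 9.03 and 9.06 in +DOX cells, against 8.57, 8.71 and 8.64 in -DOX cells (0.39 ± 0.08, adjusted p = 0.0217). Every +DOX array was above every -DOX array. The call was lost with any 1 experiment left out (adjusted p 0.0786 to 0.0959). NDUFAF1, which acts in early assembly of the membrane arm, changed by 0.08 ± 0.10 (adjusted p = 0.757). NDUFA4, once counted with complex I and now known as a complex IV subunit, had a change of -0.32 ± 0.12 and was not called (adjusted p = 0.135).

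Complex II, the succinate dehydrogenase that also works in the tricarboxylic acid cycle, has 4 subunits, all nuclear. At their own positions limma called 0 of 4, with 1 at an unadjusted p below 0.05 (SDHA). SDHA, the flavoprotein that binds succinate, read 11.50, 11.40 and 11.26 in +DOX cells, against 11.71, 11.71 and 11.59 in -DOX cells. The groups did not overlap, and the change was -0.29 ± 0.08 (adjusted p = 0.0668). Dropping probe sets without a gene symbol from the test, or a trended and robust variance, brought it below the threshold (adjusted p = 0.0475 and 0.0344). SDHB, the iron-sulphur subunit, had a change of 0.13, and the membrane anchors SDHC and SDHD had -0.13 and -0.06. The median over the 9 complex II probe sets, copies included, was -0.18, against -0.10 over the 4 subunits.

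The SDH symbols also covered 3 probe sets of SDHA-like pseudogenes on chromosome 3 (SDHALP1 and SDHALP2). One SDHALP2 probe set was called lower: it read 10.55, 10.28 and 10.25 in +DOX cells, against 10.84, 10.84 and 10.54 in -DOX cells (-0.38 ± 0.09, adjusted p = 0.0388). Its groups overlapped at 1 array each, and leaving out any 1 experiment ended the call (adjusted p up to 0.235), as did equal array medians. The other SDHALP2 probe set and SDHALP1 changed by -0.25 and -0.17 and were not called. Signal from SDHA and its near-identical copies cannot be told apart here.

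In complex III, 2 of 10 probe sets were called, both higher (20.0%, beside 6.14% of all tested probe sets), and the median change was -0.07. CYC1, the haem-bearing cytochrome c1, read 11.20, 10.91 and 10.92 in +DOX cells, against 10.79, 10.72 and 10.49 in -DOX cells. Its groups did not overlap (0.34 ± 0.09, adjusted p = 0.0479). CYCS, the soluble cytochrome c that takes electrons from CYC1 to complex IV and triggers caspase activation when released, read 10.00, 10.18 and 10.10 in +DOX cells, against 9.58, 9.86 and 9.80 in -DOX cells. It did not overlap either (0.35 ± 0.08, adjusted p = 0.0336), so the carrier and its immediate donor both rose 1.27-fold. Both calls were lost with any 1 experiment left out, with adjusted p between 0.0768 and 0.187 for CYC1 and between 0.0979 and 0.138 for CYCS.

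UQCRH, the acidic hinge protein between CYC1 and cytochrome c, had the largest rise of the members. It read 7.93, 8.36 and 8.47 in +DOX cells, against 6.96, 8.08 and 7.74 in -DOX cells. The groups overlapped because the +DOX array of experiment 1 lay below the -DOX array of experiment 2. Within each experiment +DOX was higher (0.66 ± 0.13, adjusted p = 0.0183). The -DOX array of experiment 1 stood far below the other 2 -DOX arrays. Without experiment 1 the change was 0.50 and not called (adjusted p = 0.0723), as it was without experiment 3 (adjusted p = 0.113). A brighter probe set with the same symbol, at chr1:16006456-16006731 on build 36 and outside the UQCRH gene, read 10.29, 10.60 and 10.71 in +DOX cells, against 10.14, 11.04 and 10.55 in -DOX cells. Its change was -0.04 ± 0.13 (adjusted p = 0.925), and a difference between the 2 probe sets was not tested. UQCRFS1, the Rieske iron-sulphur protein, had a change of -0.22 ± 0.09 and was not called (adjusted p = 0.185), and UQCRC2, a matrix-side structural subunit, had 0.09.

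Complex IV, cytochrome c oxidase, has its catalytic subunits on mitochondrial DNA and a shell of small nuclear subunits. Of the 10 ubiquitous nuclear subunits measured at their own position, 2 were called, both lower, and the median change was -0.22. Over all 19 complex IV members, among them paralogues of restricted tissues, 2 were called (10.5%, both lower) and the median was -0.04. Among all tested probe sets, 6.63% were called lower. COX6B1, an intermembrane-space subunit at the cytochrome c side (chr19:40830995-40841524 on build 36), had the largest fall of all members. It read 11.24, 10.85 and 11.00 in +DOX cells, against 11.86, 11.80 and 11.94 in -DOX cells. The gap between the groups was wider than the spread within either (-0.84 ± 0.10, adjusted p = 0.0026, 1.79-fold lower). COX8A, a small subunit with a single membrane helix (chr11:63498655-63500591), read 11.46, 11.49 and 11.68 in +DOX cells, against 12.03, 12.16 and 12.30 in -DOX cells. Its groups did not overlap either (-0.62 ± 0.08, adjusted p = 0.0039, 1.54-fold lower). Both genes kept the call with each experiment left out.

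The other ubiquitous complex IV subunits were not called. COX7B, a single-helix subunit, read 7.97, 7.82 and 8.45 in +DOX cells, against 8.27, 9.35 and 8.22 in -DOX cells. Its differences in experiments 1, 2 and 3 were -0.30, -1.53 and 0.24, so the mean of -0.53 ± 0.28 rested on experiment 2 (adjusted p = 0.325). COX7C, another single-helix subunit, had a change of -0.31 ± 0.09 (adjusted p = 0.0625). COX4I1, the largest nuclear subunit, COX6A1 and COX7A2 had changes of 0.04, -0.04 and -0.09. COX7A2L, which joins complexes III and IV into supercomplexes, had 0.21 ± 0.09 (adjusted p = 0.226).

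Several complex IV subunits, and NDUFA4, have paralogues that are restricted to muscle, lung, testis or low oxygen. The 7 measured here were COX4I2, COX6A2, COX6B2, COX7A1, COX7B2, COX8C and NDUFA4L2. Their changes lay between -0.02 and 0.09, and limma called 0 of 7, with 0 at an unadjusted p below 0.05. COX7B2 (mean level 4.64) and COX6B2 (5.38) lay below the 25th percentile of signal, 5.79. All 7 had their lowest difference in experiment 3, where their median was -0.21, against 0.12 and 0.14 in experiments 1 and 2. COX6B2 and COX8C, the paralogues of COX6B1 and COX8A, had changes of 0.03 and 0.05.

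Complex V had 19 measured members, of which 4 were called, all lower (21.1%, beside 6.63% of all tested probe sets). Its median change was -0.18. Its F1 head makes ATP, its c ring turns in the membrane, and the peripheral stalk and further membrane subunits hold the 2 together. ATP5J2 (now ATP5MF), the membrane subunit f, read 10.42, 10.66 and 10.69 in +DOX cells, against 11.20, 11.22 and 11.20 in -DOX cells. Its -DOX arrays lay close together and above all +DOX arrays (-0.61 ± 0.09, adjusted p = 0.0061, 1.53-fold lower). ATP5E (ATP5F1E), the epsilon subunit of the F1 stalk, read 8.82, 9.02 and 8.99 in +DOX cells, against 9.16, 9.39 and 9.59 in -DOX cells, without overlap (-0.44 ± 0.09, adjusted p = 0.0197). ATP5EP2, a processed copy of the epsilon gene on chromosome 13, fell too: it read 9.08, 9.30 and 9.28 in +DOX cells, against 9.86, 9.95 and 9.80 in -DOX cells (-0.65 ± 0.09, adjusted p = 0.0046). Signal of the gene and of the copy cannot be told apart. ATP5J2 and ATP5EP2 kept the call with each experiment left out, whereas ATP5E lost it without experiment 2 or 3 (adjusted p = 0.0618 and 0.0986).

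The c ring is made from 1 identical mature protein encoded by 3 genes. ATP5G1 (ATP5MC1) read 11.85, 11.96 and 11.99 in +DOX cells, against 12.16, 12.28 and 12.42 in -DOX cells, without overlap (-0.36 ± 0.08, adjusted p = 0.0305). ATP5G2 and ATP5G3 each had a change of -0.12 and were not called (adjusted p = 0.495 and 0.559). The 3 genes thus had changes of 1 sign, and a difference between them was not tested. Leaving out any 1 experiment ended the ATP5G1 call (adjusted p 0.0832 to 0.129). The catalytic pair of the head, ATP5A1 (ATP5F1A, alpha) and ATP5B (ATP5F1B, beta), had changes of -0.22 ± 0.09 and -0.13 ± 0.08. Neither was called (adjusted p = 0.18 and 0.429), although in both the groups did not overlap. ATP5L, the membrane subunit g, had a change of -0.31 ± 0.09 (adjusted p = 0.0587).

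**Figure D3:**
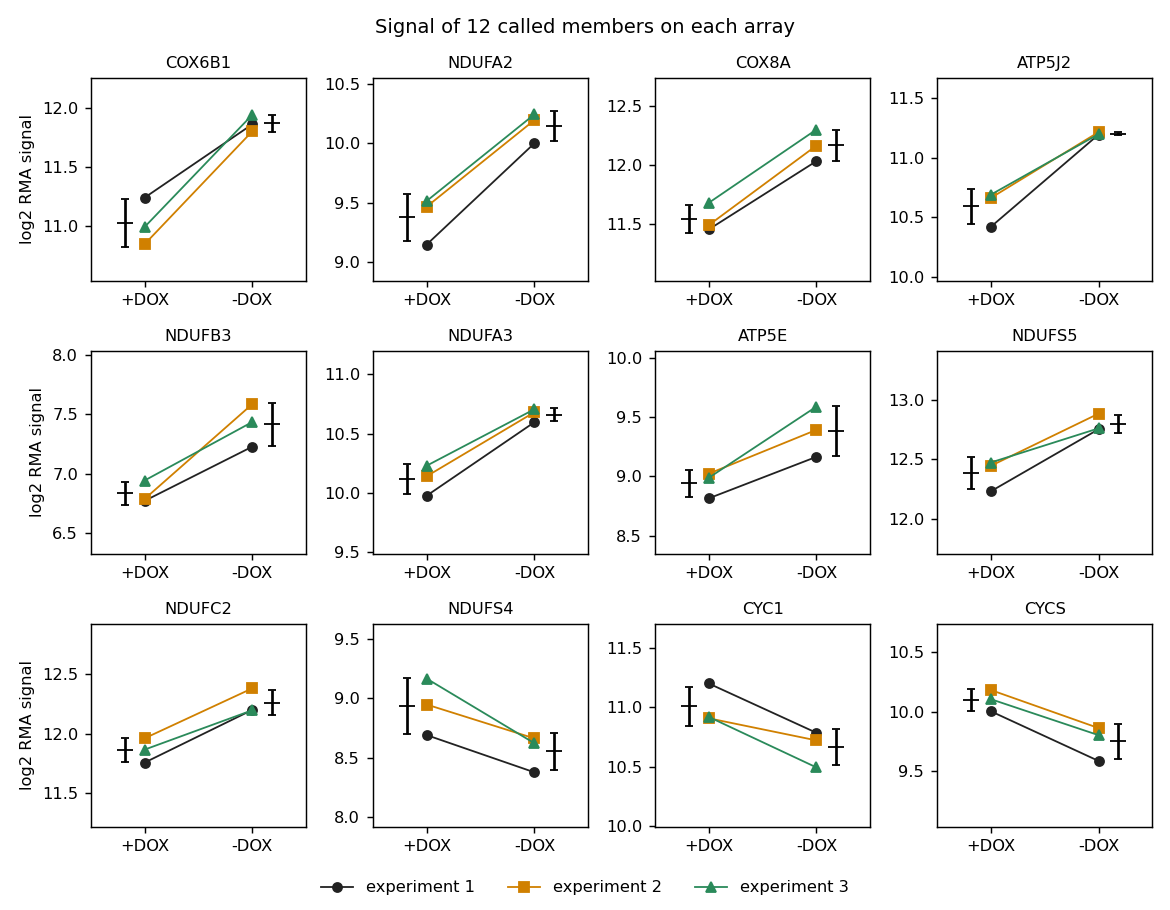
Log2 RMA signal of 12 called members on each of the 6 arrays, +DOX left and -DOX right, with lines joining the arrays of 1 experiment and bars at the mean ± SD of each group (n = 3). Each panel spans the same height on the log2 scale. In the first 9 panels each line is lower at +DOX, and for NDUFS4, CYC1 and CYCS each is higher at +DOX.

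The subunits can also be read by role across the whole chain. Of 60 accessory subunits at their own position, 12 were called lower (20.0%) and 2 higher (3.33%), with a median change of -0.13. Of 16 core subunits, 2 were called higher (CYC1 and CYCS, 12.5%) and 0 lower, with a median of -0.05. Over all tested probe sets, 6.63% were called lower and 6.14% higher. In complex V only alpha and beta were classed as core, so ATP5G1 and ATP5E count among the accessory subunits called lower. At an unadjusted p below 0.05 there were 4 higher and 3 lower core subunits, beside 24.5% of all tested probe sets in either direction. The difference between the classes was not tested. Counting only the 83 subunit probe sets at their own gene left 12 lower (14.5%) and 4 higher (4.82%).

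A probe set can carry a member's symbol and lie elsewhere in the genome, as 7 did here. NDUFAF2 has one on chromosome 2 that read 7.51, 7.78 and 7.79 in +DOX cells, against 7.04, 7.33 and 7.25 in -DOX cells (0.49 ± 0.08, adjusted p = 0.0094). It was called in the same direction as the gene on chromosome 5, and lost the call without experiment 3 (adjusted p = 0.0568). The other 6, for SDHC, UQCRFS1, COX6A1, SDHD, NDUFV2 and UQCRH, changed by -0.23, -0.12, -0.05, -0.12, -0.07 and -0.04, and none was called. Apart from UQCRH, each had the same sign as the change at its own gene.

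**Figure D4:**
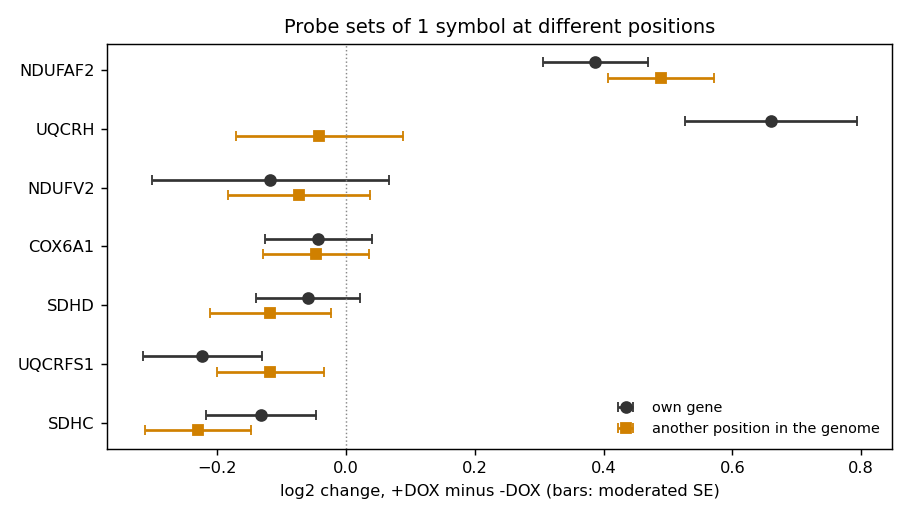
Log2 change (+DOX minus -DOX) of probe sets at the gene itself (circles) and of a probe set with the same symbol at another position (squares), with bars of 1 moderated standard error. The 2 NDUFAF2 probe sets lie at 0.39 and 0.49, while the 2 UQCRH probe sets lie at 0.66 and -0.04.

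Genes that make or use the chain were read from lists outside the members. Of 45 measured assembly factors (49 listed), 6 were called higher and 4 lower, with a median change of 0.10. Beside this and the following lists stand 6.14% called higher and 6.63% called lower over all tested probe sets. The lowest p-values belonged to COX19, a copper-handling factor of complex IV (0.91 ± 0.09, adjusted p = 0.0014), and COA6, another one (0.60 ± 0.09, adjusted p = 0.0061). They were followed by COX16, which joins in building complex IV (-0.55 ± 0.09, adjusted p = 0.0092), and LYRM7, which inserts the Rieske protein into complex III (0.57 ± 0.10, adjusted p = 0.0096). COX19 read 8.34, 8.40 and 8.36 in +DOX cells, against 7.48, 7.60 and 7.31 in -DOX cells. COX16 read 10.81, 11.17 and 11.28 in +DOX cells, against 11.53, 11.64 and 11.74 in -DOX cells. Complex IV factors were therefore called in both directions. LYRM7 lost its call without experiment 3 (adjusted p = 0.0568), and COA6 without the experiment term (adjusted p = 0.0959).

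Of 12 regulators of the nuclear respiratory genes, 2 were called higher and 1 lower. GABPB1, the beta subunit of GABP, read 8.98, 9.64 and 9.60 in +DOX cells, against 8.73, 8.92 and 8.97 in -DOX cells (0.53 ± 0.11, adjusted p = 0.0195). TFB2M, a transcription factor of mitochondrial DNA, read 9.65, 10.25 and 10.22 in +DOX cells, against 9.41, 9.78 and 9.70 in -DOX cells (0.41 ± 0.09, adjusted p = 0.0271). ESRRG, a nuclear receptor of oxidative metabolism, was dim and read 5.87, 5.58 and 5.56 in +DOX cells, against 6.53, 5.88 and 5.86 in -DOX cells (-0.42 ± 0.10, adjusted p = 0.0355). ESRRG and TFB2M overlapped between the groups. GABPB1 and TFB2M lost the call without experiment 2 or 3 (adjusted p 0.0973 to 0.133), and ESRRG with any 1 left out (adjusted p up to 0.152). All 3 also lost it without the experiment term (adjusted p = 0.124, 0.238 and 0.253). The coactivators PPARGC1A, PPARGC1B and PPRC1 had changes of -0.04, -0.04 and 0.19, and the factors NRF1, GABPA, YY1 and ESRRA had 0.10, 0.09, 0.22 and 0.06. GABPA's value is that of the probe set at its own gene on chromosome 21. A brighter probe set that carries its name but lies on chromosome 7 had 0.07, and neither was called. TFAM and TFB1M, which serve mitochondrial DNA, had 0.05 and 0.19, and none of these 9 genes was called.

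Of 14 tricarboxylic acid cycle genes outside complex II, 1 was called: IDH2, the mitochondrial isocitrate dehydrogenase, was lower (-0.56 ± 0.09, adjusted p = 0.0079), a call that missed the threshold without experiment 3 (adjusted p = 0.0507). Of 8 genes for ATP export and ATP synthase inhibition, 1 was called: VDAC3, an outer-membrane channel, was lower (-0.33 ± 0.08, adjusted p = 0.0423), and lost the call with any 1 experiment left out (adjusted p up to 0.165). The mitochondrial genome supplies the other subunits of the chain, and 8 of its 13 protein genes were measured. Of these, MT-ND3, MT-ND6 and MT-ND2, all of complex I, were called lower, with changes of -0.93 ± 0.11, -0.66 ± 0.10 and -0.79 ± 0.14 (adjusted p = 0.0025, 0.0054 and 0.0111). The median over the 8 was -0.36. These calls held with each experiment left out, but MT-ND2 and MT-ND3 lost theirs without the experiment term (adjusted p = 0.116 and 0.0529). MT-ND3 read 12.72, 11.92 and 11.91 in +DOX cells, against 13.41, 13.10 and 12.84 in -DOX cells, without overlap. UQCR10, ATP5MJ and ATP5MK, subunits listed under older symbols that the member rule does not catch, had changes of -0.24, -0.32 and -0.02 and were not called, although ATP5MJ, at an adjusted p of 0.0586, passed under 4 other settings (adjusted p 0.0352 to 0.0448). ATP5MK's value is that of the probe set at its own gene on chromosome 10, and a brighter one that carries its name but lies on chromosome X had 0.07 and was not called either.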

How the data were processed

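RNA from 3 +DOX and 3 -DOX cultures was hybridised to 6 arrays. Per the submitters' processing notes, the deposited log2 values came from RMA in R 2.11.1, which corrects background, normalises across arrays and summarises the probes of a probe set. Samples were grouped, and paired by experiment, from the titles and the series' design. Deviations from the group means correlated between the paired arrays at 0.482, 0.165 and 0.0993. Of 33297 probe sets, 4428 controls and 976 without values were left out, with some overlap, leaving 28026. Depth has no counterpart on arrays, and their number limits the precision.

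The values were fitted with limma 3.58.1 (R 4.3.3; lmFit, eBayes) with experiment as a term, after the pipeline was tested on simulated data. No filter on dim probe sets was used. Coordinates of probe sets follow the deposited table, whose chromosome accessions are those of NCBI build 36. Current names, and the positions used to tell a gene from a copy, came from RefSeq GRCh38.p14. Core subunits are those with a catalytic or electron-carrying role, and the classes were set by hand. All other subunits except the tissue-restricted paralogues were counted as accessory, the c ring and ATP5E of complex V included. The named genes were all called members, the extremes of each complex, the nuclear core, paralogue sets, every listed regulator and the lowest p-values of each further list. The brightest probe set stands for a gene outside the members, and the text gives GABPA and ATP5MK at their own gene as well. The members, lists and classes were chosen with earlier results of these data known. The alternatives were the fit without the experiment term, 2 other scalings, another variance model, the methods' t-test and leaving out each experiment. Further ones left out dim probe sets, or those without a gene symbol. Counts restricted to subunits at their own gene were added after seeing the data. The levels of the hairpin's target and of 1 further gene are not reported here.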

Additional observations from a re-analysis of the deposited data

How the results depend on the processing

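Of the 20 called members, 6 (COX6B1, NDUFA2, COX8A, ATP5J2, NDUFA3 and ATP5EP2) stayed below the threshold in all 9 other limma settings. No named gene that was called reversed its sign. Without the experiment term (no replicate block), 2 members were called higher and 9 lower, where the paired fit called 6 and 14, and 2409 probe sets passed in all (8.6%). The methods' t-test, a paired test per probe set, gave 0 higher and 0 lower members and 0 probe sets after Benjamini-Hochberg adjustment. At an unadjusted p below 0.05 it gave 6 higher and 21 lower members and 4449 probe sets (15.9% of all tested). At its 1% level it gave 2 higher and 5 lower members and 1165 probe sets (4.16%). Leaving out 1 experiment gave 0 to 2 members higher, 6 to 8 lower, and 1355 to 2853 probe sets in all, where all 6 arrays gave 3580. Of those 2853, 1909 and 1355 probe sets, 2490, 1770 and 1296 were among the 3580. The complex II median of -0.18 became -0.1369 with equal array medians, -0.0954 over its subunits at their own gene, and -0.2136 to -0.1597 with an experiment left out. The same ranges were -0.0818 to -0.0111 for complex I, -0.1474 to 0.0029 for complex III, -0.0888 to -0.0024 for complex IV, -0.2193 to -0.1343 for complex V and 0.3116 to 0.3691 for cytochrome c. The cause of these changes was not tested, and leaving out an experiment also leaves fewer arrays. Equal array medians ended the calls of SDHALP2, NDUFA1, ESRRG and VDAC3 (adjusted p = 0.0712, 0.0633, 0.0606 and 0.0617). They moved the share of higher calls to 54.9% of all calls (1906 higher and 1565 lower), where it was 48.1%, and to 33.3% of member calls, where it was 30.0%. The member share was 18.2% with no block, and with experiment 1, 2 or 3 left out there were 1, 2 and 0 higher beside 8, 6 and 7 lower members. With 3 arrays a group, small differences cannot be resolved.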

Other observations

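The genomic span of a probe set's gene was looked at after the values were seen. Of 43 subunit probe sets at their own gene that span under 10 kb, 9 were called lower (20.9%) and 2 higher (4.65%), with a median change of -0.16. Of the 40 that span 10 kb or more, 3 were called lower (7.5%) and 2 higher (5.0%), with a median of -0.02. Over all tested probe sets with a gene name, 6.71% of those under 10 kb and 8.37% of those at 10 kb or more were called lower, and 3.79% and 10.0% were called higher. COX6B1 is one of the 3 longer genes called lower. The difference between short and long members was not tested.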
